A study of Homo sapiens with 12 samples.

Results

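The 10 genes described here are readouts and components of the Hippo pathway. They were taken from the count table by symbol, by a rule that uses no measured value, although earlier results of these data were known when the rule was written: ANKRD1, AMOTL2, LATS2, THBS1, YAP1, WWTR1, TEAD1 and AJUBA, with CTGF (now CCN2) and CYR61 (now CCN1). All 10 are among the 26364 gene rows of the deposited count table, and all 10 passed the low-count filter that left 14184 genes for testing. RNA was sequenced from 12 wells of MDA-MB-231 cells, an established line from a human breast tumour that lacks hormone receptors and HER2 amplification and has a mesenchymal character. The wells formed 4 groups of 3: no drug, 1 µM dexamethasone (DEX, a synthetic glucocorticoid), 8 µM SH4-54 (an inhibitor of the transcription factors STAT3 and STAT5), and both compounds at those doses. Treatment lasted 24 h in every group. The treatment tag of the SH4-54 wells is spelled SH5-54, and the titles and the series design were followed. No source used here gives the vehicle, and all wells hold a single cell line. The p-values set differences between groups against the spread between wells, and no spread between cell lines enters them.

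In the Hippo pathway the kinases STK3 and STK4 activate LATS1 and LATS2, which phosphorylate the coactivators YAP (YAP1) and TAZ (WWTR1) and keep them out of the nucleus. When this cascade is quiet, YAP and TAZ enter the nucleus, bind the TEAD transcription factors at GGAATG-like sites and switch on genes such as CTGF, CYR61, ANKRD1 and AMOTL2. LATS2 and AMOTL2 are themselves such targets and restrain YAP, so they form a negative feedback. Glucocorticoid is reported to raise YAP activity, and the comparisons ask how these genes stood with DEX, with SH4-54 and with both.

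The promoters show how the TEAD motif is spread over these genes. RefSeq entries (GRCh38.p14) were matched for 8 of the 10 genes, all but CYR61 and TEAD1. The 250 bases before each annotated start were searched on both strands for GGAATG, whose reverse complement is CATTCC, with overlapping matches counted. AMOTL2, WWTR1 and AJUBA had 2 windows each, for 11 windows in all. The motif was present in 6 of the 11 windows, each of a different gene, and in 11.9% of all 35116 promoter windows of the same length. The windows of CTGF, ANKRD1 and THBS1 are shown because each holds the motif and the genes differed in their results with DEX. ANKRD1 and THBS1 rose with DEX and CTGF did not pass the test. The windows of YAP1 and AJUBA that hold the motif are not shown. The AMOTL2 window is shown because this gene fell. Each runs 5′ to 3′ on the gene's own strand, with matches in capitals.
CTGF, chr6:131951373-131951622, minus strand: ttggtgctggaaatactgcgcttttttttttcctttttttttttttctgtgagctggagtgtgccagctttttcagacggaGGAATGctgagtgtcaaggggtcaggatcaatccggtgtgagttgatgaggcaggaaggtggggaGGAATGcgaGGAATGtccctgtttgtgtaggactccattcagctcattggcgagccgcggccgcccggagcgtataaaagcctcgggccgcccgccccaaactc
ANKRD1, chr10:90921088-90921337, minus strand: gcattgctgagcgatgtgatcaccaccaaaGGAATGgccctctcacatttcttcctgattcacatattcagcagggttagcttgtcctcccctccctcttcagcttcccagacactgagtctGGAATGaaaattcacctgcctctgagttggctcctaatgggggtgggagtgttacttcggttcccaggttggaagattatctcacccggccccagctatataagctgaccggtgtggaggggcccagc
THBS1, chr15:39580829-39581078, plus strand: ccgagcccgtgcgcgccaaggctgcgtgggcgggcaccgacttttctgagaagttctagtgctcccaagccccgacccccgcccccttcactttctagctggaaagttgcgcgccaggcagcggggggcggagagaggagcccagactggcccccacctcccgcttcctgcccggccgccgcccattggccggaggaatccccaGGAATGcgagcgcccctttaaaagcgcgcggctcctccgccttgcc
AMOTL2, chr3:134374448-134374697, minus strand: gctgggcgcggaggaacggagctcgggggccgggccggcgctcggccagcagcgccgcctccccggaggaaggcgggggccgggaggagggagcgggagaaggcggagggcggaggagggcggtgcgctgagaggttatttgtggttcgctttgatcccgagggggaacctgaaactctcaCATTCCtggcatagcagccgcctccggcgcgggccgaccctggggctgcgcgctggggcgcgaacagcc
CTGF held 3 matches, which began 169, 104 and 95 bases before the start, and 0.0826% of all windows held 3 or more. ANKRD1 held 2, at 220 and 128 bases, against 0.94% of all windows with at least 2. THBS1 held 1 at 46 bases, and 1 of the AMOTL2 windows held 1 on the opposite strand at 69 bases. YAP1 had 1 match at 162 bases and AJUBA 1 at 59 bases, while no window of LATS2 or WWTR1 held these letters. A glucocorticoid receptor half-site, AGAACA (reverse complement TGTTCT), was in 0 of the 11 windows and in 12.4% of all windows. The AP-1 motif TGANTCA, which reads the same on both strands, was in ANKRD1 alone, 195 bases before its start, and in 6.57% of all windows. These matches are a description of letters in short windows and say nothing of binding.

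The libraries held between 25577213 and 35758236 reads counted to genes. Levels are given as CPM, counts scaled to a common library size with TMM factors, and can be compared between groups but not between genes, since no gene lengths were used. The line's markers VIM, CD44 and EGFR were present at 113 CPM or more in every library, ESR1 and PGR were at or below 0.45 CPM, and ERBB2 was at 73.8 to 90.4 CPM. CD3E, CDH5 and VWF, markers of leukocytes and endothelium, did not exceed 0.145 CPM, whereas CD68 was at 35.2 to 52.4 CPM. PTPRC, PECAM1 and the fibroblast markers PDGFRA, DCN and LUM reached at most 1.20 CPM, and the epithelial junction genes CDH1 and EPCAM were at 5.29 to 15 and 17.3 to 23.2 CPM. The glucocorticoid target FKBP5, read as a check of the labels, was at 53.9 ± 1.56 CPM (SD, n = 3) with no drug and 326 ± 17.5 CPM with DEX. Among the wells given both compounds, replicate 3 was the deepest library, had the highest FKBP5 level (271 CPM against 202 and 181) and was the lowest of the 3 for 8 of the 10 genes. Results that change without it are given with and without it.

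DEX alone did not move the pathway's readouts in 1 direction. THBS1 rose 2.29-fold and ANKRD1 1.76-fold, YAP1 and WWTR1 rose by 22.4% and 29.4%, and AMOTL2 fell by 19.7%. CTGF and CYR61, the most widely used readouts of YAP and TAZ, did not pass the test. In edgeR's quasi-likelihood test with Benjamini-Hochberg adjustment over all tested genes, 4 of the 10 genes rose and 1 fell, beside 21.9% of all tested genes that rose and 23.2% that fell. The median log2 fold change of the 10 genes was 0.07, and that of all tested genes was -0.01.

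THBS1 encodes thrombospondin-1, a secreted matrix glycoprotein. Its level was 4278, 4196 and 4474 CPM in the 3 wells with no drug, 9994, 9618 and 10031 CPM with DEX, 4661, 4363 and 4299 CPM with SH4-54, and 11795, 11184 and 11053 CPM with both compounds. Every well with DEX lay above every well without it, and the wells with both lay above those with DEX alone. DEX raised it 2.29-fold (log2 fold change 1.19 ± 0.043 SE, edgeR adjusted p = 1.54e-11). With both compounds it was 1.15 times its level with DEX (0.20 ± 0.042, edgeR adjusted p = 0.00337). THBS1 took 0.435% ± 0.0122 (SD, n = 3) of all counted reads with no drug and 1.12% ± 0.0288 with both. Summed over all libraries, it was the gene with the third most reads in the data set. The order of its group levels was no drug, SH4-54, DEX and both, of which no drug and SH4-54 did not differ beyond their spread (0.04, 95% interval -0.06 to 0.14). On the opposite strand lies FSIP1, with 29 to 63 reads a library.

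ANKRD1 encodes an ankyrin repeat protein of the nucleus and the muscle sarcomere, and its transcript is a direct YAP and TEAD target. It stood at 1700, 1833 and 1926 CPM with no drug, 3138, 3275 and 3195 CPM with DEX, 1739, 1704 and 1743 CPM with SH4-54, and 3930, 3697 and 3218 CPM with both compounds. The 6 wells with DEX were all above the 6 without it, but the lowest well with both compounds lay inside the range of the wells with DEX alone. With DEX the log2 fold change was 0.82 ± 0.060 (SE, edgeR adjusted p = 3.66e-08). The further difference between both compounds and DEX was 0.17 ± 0.060 (edgeR adjusted p = 0.0423). That call is a weak one. It was lost in 8 of the 12 fits that each left out 1 library: any of the 3 DEX wells, replicates 1 or 2 with both compounds, replicate 2 with no drug, or replicates 2 or 3 with SH4-54. The edgeR adjusted p then lay between 0.0518 and 0.195, while without replicate 3 with both compounds it was 0.00118 at a log2 difference of 0.24.

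**Figure D1:**
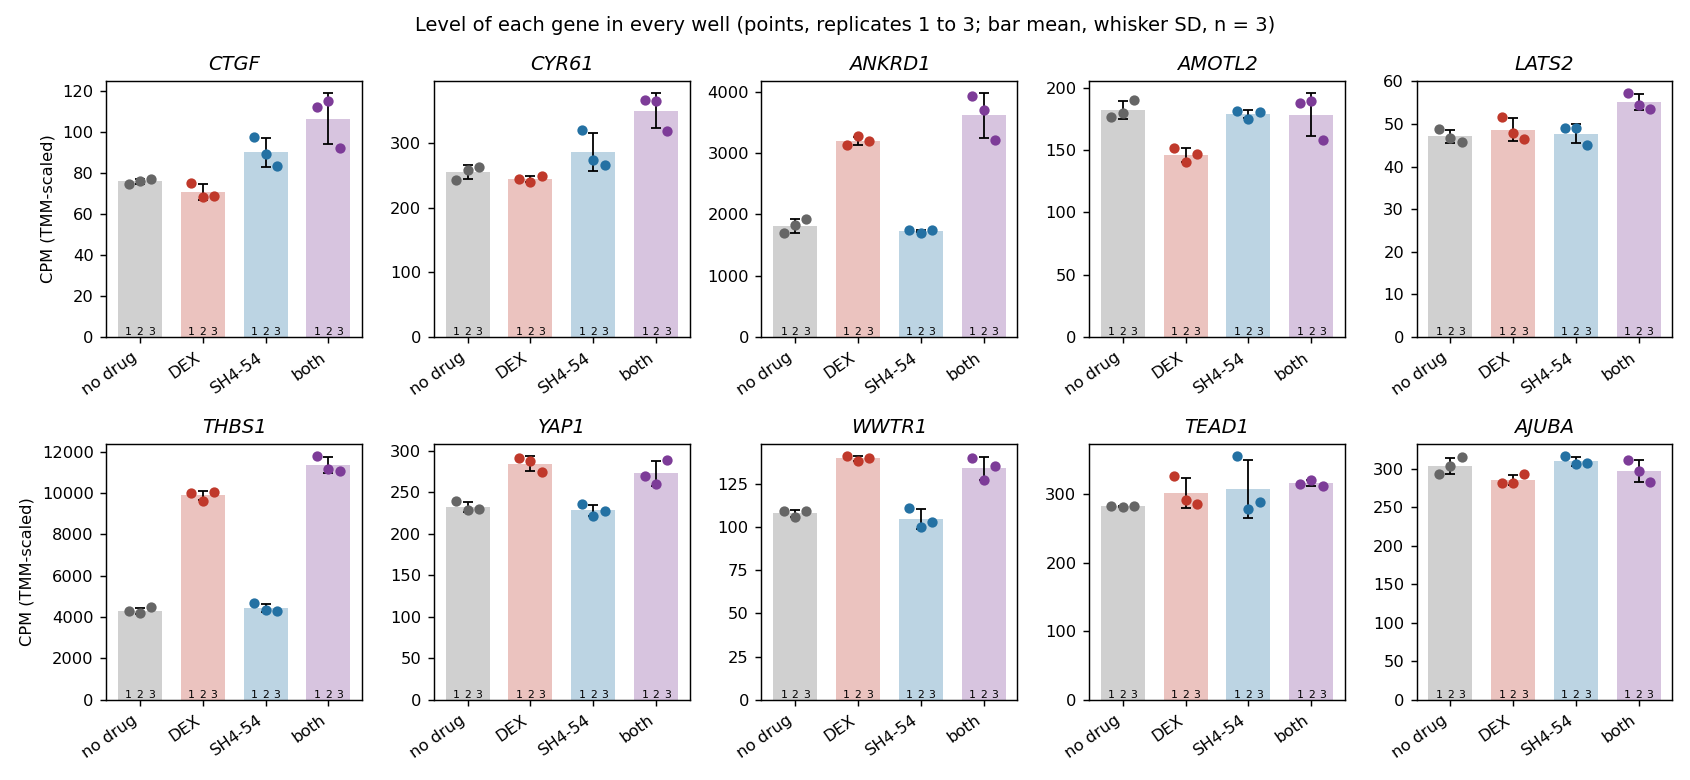
Level of each of the 10 genes in CPM after TMM scaling, with 1 panel per gene and an axis from 0. Points are the 3 wells of each group, bars their mean and whiskers the SD. THBS1 and ANKRD1 are high in both groups with DEX, whereas CTGF and CYR61 are highest with both compounds and AMOTL2 is lowest with DEX alone.

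CTGF and CYR61 encode secreted matricellular proteins of the CCN family that bind integrins. CTGF was at 74.5, 76.2 and 76.7 CPM with no drug, 74.9, 68.2 and 68.7 CPM with DEX, 97.3, 89.3 and 83.1 CPM with SH4-54, and 112, 115 and 91.9 CPM with both compounds. The wells with DEX alone overlapped the no-drug wells, and every well with SH4-54, with or without DEX, was above all 6 wells without it. With DEX the log2 fold change was -0.10 ± 0.074 (SE, 95% interval -0.27 to 0.07, edgeR adjusted p = 0.284). With both compounds against DEX alone CTGF rose by 50.3% (0.59 ± 0.073, edgeR adjusted p = 9.19e-05).

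CYR61 was at 243, 258 and 263 CPM with no drug, 245, 239 and 250 CPM with DEX, 320, 274 and 266 CPM with SH4-54, and 366, 365 and 319 CPM with both compounds. It followed the order seen for CTGF, namely DEX lowest, then no drug, SH4-54 and both. Its log2 fold change with DEX was -0.06 ± 0.065 (SE, 95% interval -0.21 to 0.09, edgeR adjusted p = 0.484). Against DEX alone it rose by 43.0% with both compounds (0.52 ± 0.064, edgeR adjusted p = 9.37e-05). For CTGF and CYR61 alike, the neighbouring steps from DEX to no drug and from no drug to SH4-54 did not pass the test, whereas the step from SH4-54 to both did.

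Counted reads can be set against each other inside 1 library, which leaves out depth and scaling. The ratio is not one of transcripts, since the genes differ in length. CYR61 gave 3.36 ± 0.0892 reads (SD, n = 3) per CTGF read with no drug, 3.47 ± 0.186 with DEX, 3.18 ± 0.114 with SH4-54 and 3.30 ± 0.146 with both, and every well lay between 3.06 and 3.63. ANKRD1 gave 24.0 ± 1.13 reads per CTGF read with no drug, 45.5 ± 3.19 with DEX, 19.3 ± 1.56 with SH4-54 and 34.1 ± 1.62 with both. THBS1 gave 16.9 ± 0.689 reads per CYR61 read with no drug, 40.4 ± 0.386 with DEX, 15.6 ± 0.873 with SH4-54 and 32.5 ± 2.04 with both. For both of these ratios the 3 wells with DEX alone were the highest, the wells with both compounds came next, and no well with DEX overlapped a well without it.

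**Figure D2:**
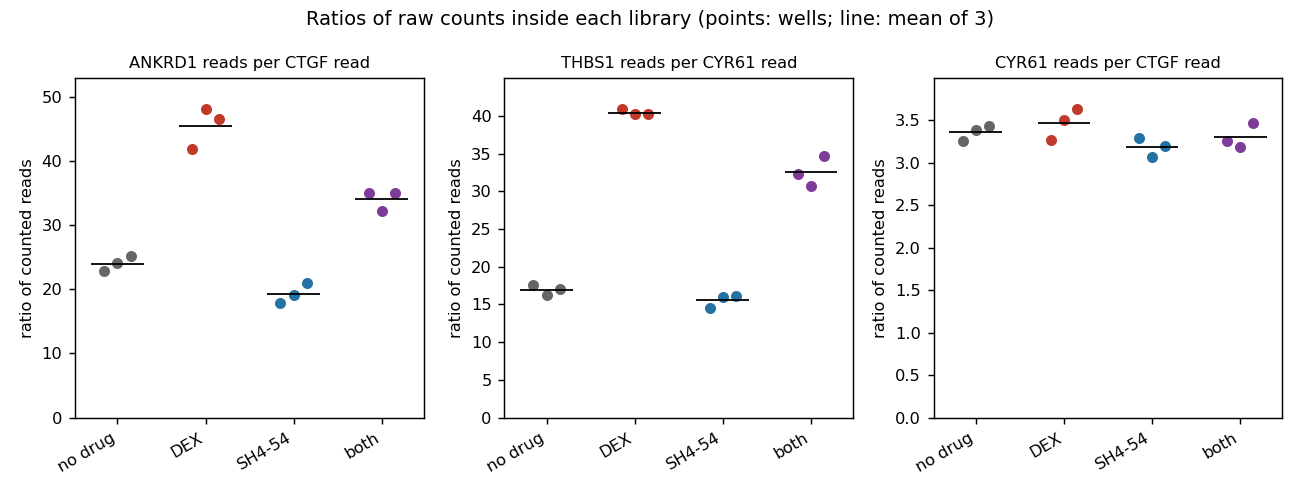
Ratios of raw counts in each of the 12 libraries, on axes from 0. Points are wells and lines the mean of 3. ANKRD1 per CTGF and THBS1 per CYR61 are highest with DEX alone, at means of 45.5 and 40.4, while CYR61 per CTGF lies between 3.06 and 3.63 in every well.

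AMOTL2, an angiomotin family protein that binds YAP and holds it in the cytoplasm, went the other way from ANKRD1. Its level was 177, 180 and 190 CPM with no drug, 152, 140 and 147 CPM with DEX, 181, 175 and 180 CPM with SH4-54, and 188, 189 and 158 CPM with both compounds. The 3 wells with DEX alone were the lowest of the 12. AMOTL2 fell with DEX (log2 fold change -0.32 ± 0.056 SE, edgeR adjusted p = 0.000312). With both compounds it was 21.9% above its level with DEX (0.29 ± 0.056, edgeR adjusted p = 0.00217), and it then differed from no drug by -0.03 (95% interval -0.16 to 0.10).

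LATS2, the kinase that phosphorylates YAP and TAZ, was at 48.9, 46.6 and 45.9 CPM with no drug, 51.6, 47.8 and 46.5 CPM with DEX, 49.0, 49.1 and 45.2 CPM with SH4-54, and 57.2, 54.5 and 53.6 CPM with both compounds. The wells with both were above the other 9, which overlapped one another. LATS2 did not pass the test with DEX (0.05 ± 0.0495, edgeR adjusted p = 0.492) and rose with both compounds against DEX (0.18 ± 0.0493, edgeR adjusted p = 0.0153). Without DEX replicate 2, DEX replicate 3 or replicate 1 with both compounds, the edgeR adjusted p of that rise was 0.0584, 0.0709 and 0.0675. Its rise with both against no drug (0.22 ± 0.0491, edgeR adjusted p = 0.00183) passed in every fit.

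The coactivators themselves rose with DEX, whether or not SH4-54 was present. YAP1 was at 239, 229 and 229 CPM with no drug, 291, 288 and 274 CPM with DEX, 235, 221 and 227 CPM with SH4-54, and 269, 259 and 289 CPM with both compounds. WWTR1, which encodes TAZ, was at 109, 106 and 109 CPM with no drug, 141, 138 and 140 CPM with DEX, 111, 100 and 103 CPM with SH4-54, and 140, 127 and 135 CPM with both. For either gene all 6 wells with DEX were above all 6 wells without it.

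DEX alone gave a log2 fold change of 0.29 ± 0.041 for YAP1 (SE, edgeR adjusted p = 3.68e-05) and 0.37 ± 0.042 for WWTR1 (edgeR adjusted p = 4.17e-06). In the presence of SH4-54 the DEX effect was 0.26 ± 0.041 for YAP1 and 0.36 ± 0.042 for WWTR1 (edgeR adjusted p = 0.000152 and 9.24e-06). YAP1 did not pass the test between both compounds and DEX (-0.06, edgeR adjusted p = 0.29), but without replicate 3 with both compounds it was -0.12 (edgeR adjusted p = 0.0276). WWTR1-AS1 lies opposite WWTR1 and had 3 to 13 reads a library.

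TEAD1, a DNA-binding partner of YAP and TAZ, was at 282, 281 and 283 CPM with no drug, 326, 292 and 286 CPM with DEX, 356, 279 and 288 CPM with SH4-54, and 315, 321 and 312 CPM with both compounds. Its spread was widest with SH4-54, where replicate 1 stood above all other wells. TEAD1 did not pass the test in any of the 6 comparisons. Against no drug it was 0.16 higher on the log2 scale with both compounds (edgeR adjusted p = 0.0758). That difference passed without SH4-54 replicate 1 (edgeR adjusted p = 0.00535), with no count filter (0.0314) and with the compared groups alone (0.00249). The difference of both compounds from SH4-54 was 0.04 (95% interval -0.12 to 0.20), and without the same well its edgeR adjusted p was 0.018.

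AJUBA, a LIM protein that inhibits LATS kinases at cell junctions, was at 294, 304 and 315 CPM with no drug, 282, 282 and 294 CPM with DEX, 317, 306 and 307 CPM with SH4-54, and 311, 297 and 283 CPM with both compounds. These ranges lie close together, with DEX alone lowest. With DEX its log2 fold change was -0.09 ± 0.038 (SE, edgeR adjusted p = 0.0654), or an edgeR adjusted p of 0.0386 without replicate 1 with no drug.

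SH4-54 alone moved none of the 10 genes past the threshold in edgeR, against 0.268% of all tested genes that rose and 0.331% that fell. At an unadjusted p under 0.05, 2 of the 10 genes, CTGF and CYR61, stood out, as did 13.1% of all tested genes. CTGF was 0.25 higher on the log2 scale (95% interval 0.08 to 0.42, edgeR adjusted p = 0.161), and CYR61 was 0.17 higher (95% interval 0.02 to 0.32, edgeR adjusted p = 0.276). DESeq2 called CTGF alone, with an adjusted p of 0.0472, and in edgeR its adjusted p was 0.0275 when replicate 3 with both compounds was left out of the shared estimate of spread. For the other 8 genes the log2 difference lay between -0.07 for ANKRD1 and 0.13 for TEAD1.

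With DEX present, CTGF and CYR61 were higher in the wells that also had SH4-54, while no difference passed the test for YAP1 or WWTR1. Between both compounds and DEX alone, 6 of the 10 genes rose (CTGF, CYR61, ANKRD1, AMOTL2, LATS2 and THBS1) and 0 fell, beside 13% and 13.5% of all tested genes. The members' median log2 difference was 0.18, and that of all tested genes was 0.005. YAP1, WWTR1, TEAD1 and AJUBA lay between -0.06 and 0.07. As given above, the calls of ANKRD1 and LATS2 were lost in 8 and 3 of the 12 fits that left out 1 library. At an unadjusted p under 0.05 the count was again 6, beside 38.5% of all tested genes. DESeq2 also called 6 of the 10, and 3262 of all tested genes.

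Against no drug, 7 of the 10 genes rose with both compounds and 0 fell, beside 21.1% and 21.6% of all tested genes. These were CTGF (1.40-fold), CYR61 (1.37-fold), ANKRD1 (1.99-fold), LATS2 (1.17-fold), THBS1 (2.63-fold), YAP1 (1.17-fold) and WWTR1 (1.24-fold). Against SH4-54 alone the same 7 symbols rose and 0 fell, beside 20.1% and 20.3% of all tested genes. For CTGF that rise was 0.24 ± 0.073 (SE, edgeR adjusted p = 0.0164), and it did not pass without SH4-54 replicate 3 (0.0797) or without replicate 1 or 2 with both compounds (0.0726 and 0.0764). These comparisons share wells with one another and are not separate evidence.

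**Figure D3:**
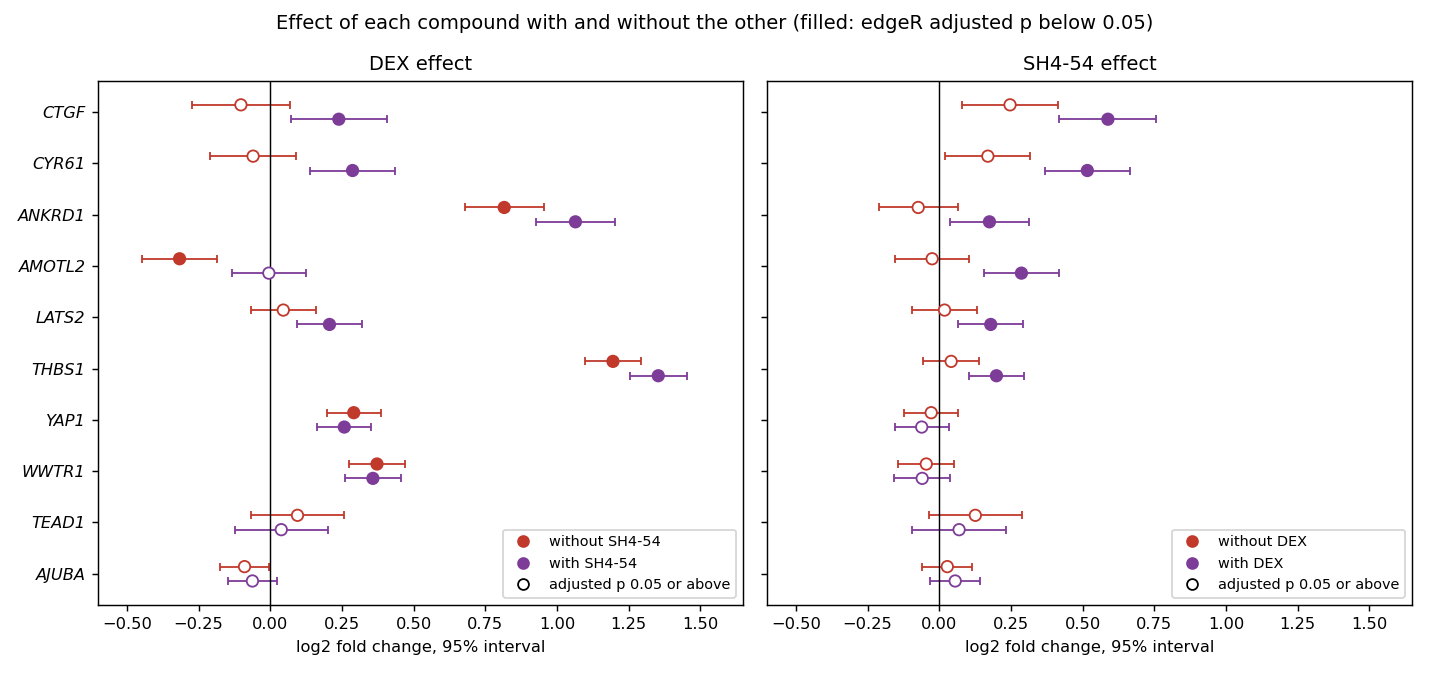
Log2 fold change with its 95% interval for each of the 10 genes, for DEX with and without SH4-54 (left) and for SH4-54 with and without DEX (right). Filled points have an edgeR adjusted p below 0.05. CTGF and CYR61 lie near 0 for DEX alone and at 0.59 and 0.52 for SH4-54 with DEX, while ANKRD1 and THBS1 are far above 0 for DEX in both settings.

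The interaction term asked whether the effect of one compound differed in the presence of the other. CYR61 had an interaction of 0.35 ± 0.0911 on the log2 scale (SE, edgeR adjusted p = 0.0476) and AMOTL2 one of 0.31 ± 0.0794 (edgeR adjusted p = 0.0432). Thus 2 of the 10 genes were called upward and 0 downward, beside 2.44% and 1.46% of all tested genes. CTGF (0.34 ± 0.103, edgeR adjusted p = 0.0775) and ANKRD1 (0.25 ± 0.0843, edgeR adjusted p = 0.109) had terms of like size that did not pass. The intervals of YAP1, -0.17 to 0.10, and WWTR1, -0.15 to 0.12, include 0.

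Both calls were close to the threshold and were lost in most fits that left out 1 library. Over all alternatives the term stayed between 0.29 and 0.43 for CYR61 and between 0.27 and 0.37 for AMOTL2. The CYR61 call was lost in 10 of the 12 fits that left out 1 library, all but those without SH4-54 replicate 1 or replicate 3 with both compounds. The AMOTL2 call was lost in 11 of 12, all but the fit without replicate 3 with both compounds. In these 11 fits the interaction calls over all tested genes also fell, to between 204 and 507 from 553 with every library. In the fit without replicate 3 with both compounds, the terms of CTGF, CYR61, ANKRD1 and AMOTL2 were all past the threshold in edgeR. They were 0.42 (edgeR adjusted p = 0.00287), 0.39 (0.00742), 0.30 (0.00491) and 0.37 (0.000535), in that order. The same fit called 2046 of all tested genes for the interaction, against 553 with every library. CTGF also passed without SH4-54 replicate 1, at an edgeR adjusted p of 0.0471.

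Among the 10 genes, CTGF and CYR61 were the pair with the most similar pattern. Likeness was measured as the root mean square difference of the 3 log2 fold changes from no drug, over 10721 genes with at least 5 CPM in some group, and it describes 3 values that share their controls. CYR61 was the fourth nearest gene to CTGF, at 0.0537. Nearer were CSRNP1 (0.0394), ZNF433 (0.0436) and PIR (0.0509). The nearest to CYR61 were ZNF324B (0.0146), CSRNP1 (0.0323) and APC2 (0.0326). ANKRD1 was nearest to PCDH9 (0.0431), IRX3 (0.0907) and PKDCC (0.0935), and THBS1 was 0.327 away from it, at rank 219. YAP1 and WWTR1 were 0.0676 apart, and WWTR1 was at rank 409 among the genes nearest to YAP1.

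Other target genes of YAP, TAZ and TEAD moved in both directions with DEX. Of 25 tested, 11 rose and 11 fell, beside 21.9% and 23.2% of all tested genes, with a median log2 fold change of -0.03 beside -0.01 for all. AREG, a ligand of the EGF receptor, rose from a mean of 2.34 to 15.9 CPM, and CCDC80 from 31.2 to 75.3 CPM. NT5E, the ecto-enzyme CD73, fell from 466 to 282 CPM. Between both compounds and DEX, 8 rose and 3 fell, beside 13% and 13.5% of all tested genes, with 5 rises without replicate 2 with both compounds. INHBA, an activin subunit, went from 24.0 to 33.4 CPM and the stress gene GADD45A from 29.6 to 38.7 CPM. With no drug these 2 genes were at 13.1 and 16.5 CPM. MYOF rose by 0.19 and RBMS3 fell by 0.42 on the log2 scale, each back toward its level with no drug. With no drug, DEX and both, MYOF was at 1131, 795 and 909 CPM and RBMS3 at 54.9, 81.7 and 60.9 CPM.

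The Hippo kinase list holds the core kinases, their adaptors SAV1, MOB1A and MOB1B, and the upstream kinases. Of its 13 tested genes, 0 rose and 6 fell with DEX, beside 21.9% and 23.2% of all tested genes, and the median log2 fold change was -0.16 beside -0.01 for all. Among them, MAP4K5 fell from 106 to 75.9 CPM, MAP4K3 from 74.6 to 60.7 CPM, TAOK3 from 66.4 to 58.9 CPM, and MOB1A, the LATS cofactor, from 133 to 118 CPM. Between both compounds and DEX 0 rose and 2 fell, beside 13% and 13.5% of all tested genes, namely MOB1B (-0.16) and MAP4K4 (-0.15). Neither of those calls held without any 1 of DEX replicates 1 and 2 or of replicates 1 and 2 with both compounds. Without DEX replicate 3, no-drug replicate 2 or 3, or any SH4-54 well, 1 of them was left. MAP4K4 also missed the threshold in edgeR with the compared groups alone (adjusted p = 0.093) and with the stricter count filter (0.0515).

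STRIPAK is the phosphatase complex that turns off STK3 and STK4. Of 8 of its subunit genes tested, 0 rose and 5 fell with DEX, beside 21.9% and 23.2% of all tested genes, at a median of -0.14 beside -0.01 for all. Among the falls were STRIP2 (-0.54), STRN4 (-0.22), SLMAP (-0.17) and STRN3 (-0.13). With both compounds against DEX, STRN4 alone rose (0.21) and 0 fell, where 13% and 13.5% of all tested genes did.

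Of 14 scaffold and junction genes, 3 rose and 5 fell with DEX, beside 21.9% and 23.2% of all tested genes, at a median of -0.06 beside -0.01 for all. LIMD1, a relative of AJUBA, fell by 0.55 on the log2 scale, AMOTL1, a relative of AMOTL2, by 0.53, and RASSF1 by 0.36, while the atypical cadherin FAT4 rose by 0.42. Against DEX, both compounds gave 6 rises and 0 falls, beside 13% and 13.5% of all tested genes, with a median of 0.12 beside 0.005 for all. SCRIB (0.29), WTIP (0.25) and WWC3 (0.21) were among them, as was FAT4 (0.27), whose call was lost without DEX replicate 2 or 3 or without replicate 1 or 2 with both compounds. The count was 3 without DEX replicate 3 or without replicate 2 with both compounds.

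VGLL3, a cofactor that binds TEADs in place of YAP, rose from 23.4 to 57.8 CPM with DEX and was at 43.9 CPM with both compounds (log2 difference from DEX -0.39 ± 0.0659 SE, edgeR adjusted p = 0.000796). Of the 5 tested TEAD and VGLL genes, 2 rose and 0 fell with DEX, beside 21.9% and 23.2% of all tested genes. The other was TEAD3 (0.22), whose call was lost without DEX replicate 1 or no-drug replicate 2. TEAD4 rose between DEX and both compounds (0.32), where 1 of 5 rose and 1 fell, beside 13% and 13.5% of all.

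A relative of CTGF and one of THBS1 fell with DEX. NOV, a CCN family member now named CCN3, fell from 72.4 to 27.0 CPM and THBS2 from 2.93 to 1.67 CPM, which made 2 falls and 0 rises among 3 tested genes, beside 23.2% and 21.9% of all. Between both compounds and DEX NOV rose by 0.21, a call lost without any 1 DEX well, without replicate 2 with both compounds, or with the compared groups alone (edgeR adjusted p = 0.0895). Without replicate 3 with both compounds, 1 of the 3 genes fell in that comparison.

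Genes of the actin-responsive SRF and MRTF pathway and of fibronectin and focal adhesions were read because YAP responds to tension. Of 12 tested SRF and MRTF targets, 5 rose and 2 fell with DEX, beside 21.9% and 23.2% of all tested genes, with TAGLN (0.41), ACTB (0.39), MYL9 (0.53) and TPM1 (0.19) among the rises. The 2 falls were SRF (-0.19) and FHL2 (-0.19). Against DEX, both compounds gave 3 rises, FLNA (0.22), SRF (0.22) and FHL2 (0.16), and 1 fall, TAGLN (-0.27). These stand beside 13% and 13.5% of all tested genes, with 1 rise left without replicate 2 with both compounds. The call of FHL2 was also lost without DEX replicate 1 or 2 or replicate 1 with both compounds, and with the compared groups alone (edgeR adjusted p = 0.0583). The falls were 2 without DEX replicate 3 and 3 without replicate 3 with both compounds. Against no drug, SRF (0.02) and FHL2 (-0.02) did not pass the test with both compounds. TAGLN also fell with SH4-54 alone (-0.38, edgeR adjusted p = 4.29e-05).

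Of 9 fibronectin and focal adhesion genes, 5 rose with DEX and 2 fell, beside 21.9% and 23.2% of all tested genes. FN1, fibronectin, rose from 167 to 566 CPM and ITGA5, a subunit of its receptor, from 80.6 to 238 CPM. PTK2 (0.60) and TLN1 (0.23) also rose. The falls came to 1 in the fits without any 1 of the no-drug or SH4-54 wells, DEX replicate 2 or replicate 1 with both compounds. With both compounds FN1 was at 346 CPM and ITGA5 at 171 CPM, below DEX alone by 0.71 ± 0.0924 and 0.47 ± 0.0652 on the log2 scale (SE, edgeR adjusted p = 0.000125 and 0.000185). In that comparison 2 of the 9 rose and 2 fell, beside 13% and 13.5% of all. SRC (0.17) and ZYX (0.22) were the rises, and neither call held without DEX replicate 2 or 3 or replicate 2 or 3 with both compounds. The SRC call held in 6 of 19 alternatives: it also went without replicates 1 or 2 of the no-drug wells or 2 or 3 of the wells with SH4-54, with DESeq2 (adjusted p = 0.16), with no count filter (0.0974), with DESeq2 size factors (0.0561) and with the compared groups alone (0.0803).

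**Figure D4:**
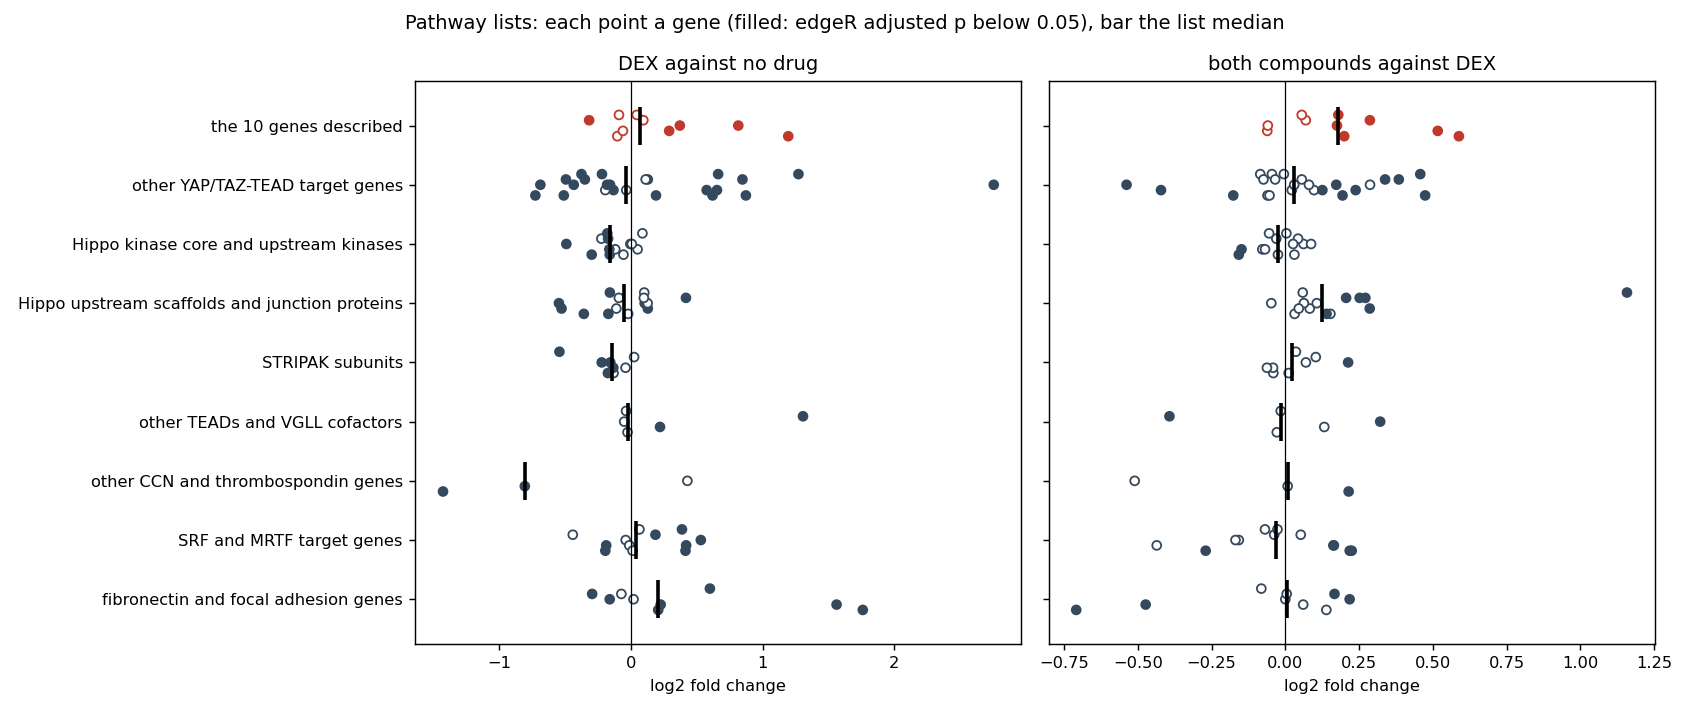
Log2 fold change of the tested genes of the pathway lists, for DEX against no drug (left) and both compounds against DEX (right), on axes of different range. Points are genes, filled where the edgeR adjusted p is below 0.05, and black bars are list medians. With DEX alone the kinase and STRIPAK lists have medians of -0.16 and -0.14. The medians are over all tested genes of a list, including 1 target gene that is not drawn.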

How the data were processed

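Per the labels' protocols, total RNA was depleted of ribosomal RNA and stranded single-end libraries were sequenced. The authors deposited whole-number read counts per gene. Per the submitters' processing notes, HISAT2 2.1.0, SAMtools and featureCounts 1.5.1 were used with hg19 (GRCh37). How strand and reads with several hits were treated, and which annotation was used, no source used here gives. Reads of a gene and of an overlapping gene cannot be told apart with certainty: 7 annotated genes overlap exons of the described genes, and 2 of them have a row.

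Counts were tested with edgeR 4.0.16 in R 4.3.3 (filterByExpr, TMM, glmQLFit, glmQLFTest, 1 mean per group over 12 libraries, 8 residual degrees of freedom), with Benjamini-Hochberg adjustment over 14184 genes and a threshold of 0.05. The SE is the size of the log2 fold change divided by the root of F. Each 95% interval is the log2 fold change plus or minus the SE times the t quantile at 8 degrees of freedom. Such intervals can be wider than the test: the LATS2 interaction had an unadjusted edgeR p of 0.0364 and an interval of -0.00013 to 0.32. CPM are TMM-scaled. The 6 comparisons were each compound and both against no drug, both against each compound, and the interaction. DESeq2 1.42.0 was an alternative, and scripts were tested on simulated data. Libraries of a group differed beyond counting noise (lowest chi-square per degree of freedom 4.23). The mean within-group coefficient of variation of the genes described was 3.12% to 6.63%, and counting error alone gave at most 2.92%.

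The members and pathway lists were chosen with earlier results of these data known. From each list, up to 4 genes passing the test in DEX against no drug and up to 4 in both against DEX were named by smallest p, with the 3 nearest genes to CTGF, CYR61 and ANKRD1, and FKBP5 as a check of the labels (TSC22D3, fixed as a second check, was at 6.81 CPM with no drug and 85.9 CPM with DEX). A gene that this rule named is not reported here.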

Additional observations from a re-analysis of the deposited data

Results flagged for a closer look

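CYR61 and AMOTL2 are flagged because their interaction terms passed the threshold in edgeR: 0.35 for CYR61 and 0.31 for AMOTL2 on the log2 scale. The term of CTGF was of like size, 0.34, but did not pass (edgeR adjusted p = 0.0775). For AMOTL2 the log2 effect of DEX was -0.32 without SH4-54 and -0.01 with it. For CYR61 the log2 effect of SH4-54 was 0.17 without DEX and 0.52 with it. With edgeR adjusted p-values of 0.0476 for CYR61 and 0.0432 for AMOTL2, both calls lie close to the threshold. The left-out fits in which they were lost are given above.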

How the results depend on the processing

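Of 27 calls of the 10 genes over the 6 comparisons, 22 held under every alternative that could be fitted, and no value that was called changed sign. THBS1 is among the 10 most abundant genes and so is missing from the fit without them, and the interaction has no fit on the compared groups alone. For SH4-54 alone, the number of the 10 genes called was 0, but 1 with DESeq2's Wald test, 1 with no count filter and 0 to 1 with each library left out. The number called for the interaction was 2, but 1 with DESeq2 size factors, 4 with DESeq2's Wald test, 4 with no count filter, 0 with the replicate block and 0 to 4 with each library left out. Over all tested genes, SH4-54 alone gave 85 calls, but 155 on the compared groups alone, 185 with DESeq2's Wald test, 176 with no count filter and 26 to 163 with each library left out. The interaction gave 553 calls, but 554 with DESeq2 size factors, 754 with DESeq2's Wald test, 848 with no count filter and 394 with the replicate block. With each library left out it gave 204 to 2046 calls, the most without replicate 3 with both compounds. Both compounds against DEX gave 2213 to 4633 with each library left out. The cause of these differences was not tested. None of 18 same-numbered pairs had a correlation of deviations over 0.1, and 3 libraries correlated best with their own number. Such correlations over 3 wells per group are a weak check of whether same-numbered wells were paired. With the replicate block, the 10 genes gave 5 calls with DEX, 0 with SH4-54, 8 with both against no drug, 5 with both against DEX and 7 with both against SH4-54. In the same order, all 14184 tested genes gave 6162, 68, 5795, 3484 and 5471 calls with the block. ANKRD1 (adjusted p = 0.0575, both against DEX), CYR61 (0.0602, interaction) and AMOTL2 (0.0643, interaction) then missed the threshold in edgeR, as did SRC (0.0622) and MAP4K4 (0.0717, both against DEX), and TEAD1 passed it (0.0418, both against no drug). On the compared groups alone ANKRD1 had an adjusted p of 0.0812 (both against DEX) and CTGF 0.0559 (both against SH4-54), while TEAD1 passed at 0.0496 (DEX) and 0.00249 (both against no drug) in edgeR.

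With 3 wells per group, differences of the size of the intervals given may have been missed. The wells are of a single cell line at a single dose and time. Protein, phosphorylation and location of YAP and TAZ are not measured by these counts. The shorter core GAATG is in 31.0% of all promoter windows.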
